A study of Drosophila melanogaster with 9 samples.

Results

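The odorant-binding protein (Obp) genes of Drosophila melanogaster were followed in heads of adult females that were control flies or were heterozygous or homozygous for Ime4. A gene was a member if its FlyBase symbol began with Obp and a number, which gave 51 of the 17558 genes in the count tables. The rule itself reads names and no measured value. RNA-Seq of poly(A) RNA was done in 9 libraries, 3 from control flies (wt), 3 from flies heterozygous for Ime4 (Ime4het) and 3 from flies homozygous for it (Ime4hom). All flies were females 1 to 2 days old, raised at 25 °C and 60% humidity, and all RNA came from whole heads, which include the antennae and the mouthparts. The labels give neither the name of the Ime4 allele nor the strain and background of the controls. The labels do not say whether the 3 libraries of a group stem from separate cultures, and a p-value here therefore measures the spread between these libraries, which may be technical. In whole heads, fewer cells of a type and less RNA per cell cannot be told apart, which holds for each result.

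Odorant-binding proteins are small soluble proteins that support cells secrete into the fluid around the dendrites of olfactory and taste neurons, where many bind hydrophobic odorants. Best known is lush, which olfactory neurons need for normal detection of the pheromone cis-vaccenyl acetate, and which carries the FlyBase symbol lush and so is not among the 51. Other members are made in taste organs, glia, fat body or reproductive glands. Ime4, listed as Mettl3 in the annotation, encodes the enzyme that methylates adenosine in messenger RNA (m6A).

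Reads counted in genes numbered 2730289 to 4272550 per library, and Obp genes took 0.204 to 0.334% of them. Mettl3 reads numbered 17, 19 and 18 (control), 8, 13 and 16 (heterozygous) and 3, 3 and 2 (homozygous), and Mettl3 fell in the homozygous against the control group (log2 fold change -2.997 ± 0.48 SE, edgeR adjusted p = 2.61e-04). Only its control libraries all had at least 10 reads, so it was kept for testing largely through them, and its call is a description. The tissue label was met by the markers: photoreceptor genes summed to 24900 to 26480 CPM (counts-per-million, TMM-scaled) in control, 21850 to 24390 CPM in heterozygous and 18700 to 20120 CPM in homozygous libraries, and neuron genes to 5574 to 6460, 4656 to 5011 and 4068 to 4456 CPM. A set of libraries stood apart on markers of other tissues. Gut genes (34 listed, 4 with no read) summed to 993 and 1156 CPM in homozygous replicates 1 and 2, but to 47.5 to 124 CPM in the other libraries. Ovary genes (16 listed, 2 with no read) summed to 361 CPM in control replicate 3 and to at most 7.95 CPM elsewhere. Fat body genes (14 listed) summed to 4782 to 6676 CPM in control, 7776 to 11840 CPM in heterozygous and 10080, 9758 and 4196 CPM in homozygous libraries, where replicate 3 was the lowest of all. Most of that sum was Yp1, Yp2 and Yp3, at 1017, 873 and 654 CPM in homozygous replicate 3, each below all other libraries. Sodh1 of the same list had 96.1 CPM there against 24.5 to 31.5 CPM in control, so the low sum does not hold for every listed gene. Antennal marker genes other than the 51 (lush included) summed to 369 to 452, 657 to 751 and 463 to 553 CPM in the 3 groups. Most of that sum was Os-C (means of 185, 355 and 257 CPM), a10 (93.4, 145 and 108) and a5 (33.3, 64.4 and 52.4). Means of lush were 28.2, 28.9 and 26.7 CPM. Of 9 tested antennal markers 3 passed as higher and none as lower in heterozygous against control heads (5.61% and 3.98% of all tested genes). The part of these tissue markers in the Obp results was not tested.

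Of the 51 genes, 29 had enough reads to be tested, 11 had reads but too few, and 11 had none in any library. The tested genes had at least 84 reads in all and the untested ones at most 45. A gene can pass this filter through 1 group alone, as Obp99b did through the homozygous libraries, so the 29 do not stand for the 51. Genes without a read were Obp46a, Obp47a, Obp47b, Obp50b, Obp50c, Obp50d, Obp51a, Obp56i, Obp57d, Obp58d and Obp73a. No read among 31982065 allows a level of up to 0.0938 CPM (3 reads, counting error only). For 5 of them that limit is uncertain, because their exons overlap those of another gene: Obp57d lies wholly within exons of Cpr57A, Obp47b wholly within those of CG7741, Obp50b and Obp50c share exon bases with each other, and Obp73a shares some with Ogdh. Of the genes clustered as Obp50 and Obp58, none of 8 was tested. Obp8a, a seminal fluid protein gene, gave 5, 4 and 11 reads (control), 7, 1 and 7 (heterozygous) and 2, 1 and 2 (homozygous), which is too few to compare.

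Per length of exon, Obp19d was the most abundant member, at 729 ± 98.5 RPKM (CPM per kilobase of exon, SD, n = 3) in control heads. Its product is found in the antenna below the cuticle. It also led in heterozygous (918 ± 25.9 RPKM) and homozygous heads (1019 ± 134 RPKM). Behind it the order differed by group. In control heads Obp44a, a lipid-binding member made by glia, had 554 ± 173 RPKM, Obp56e 373 ± 42.6, the antennal Obp83a 162 ± 12.1 and Obp56d 103 ± 16.9. The range of Obp44a overlapped those of Obp19d and Obp56e, but within every control library Obp44a lay between them. In heterozygous heads Obp56e had 644 ± 89.6 RPKM, Obp56d 400 ± 94.5, Obp44a 319 ± 34.2 and Obp83a 279 ± 17.6. Within every library Obp56e was above Obp56d and Obp56d above Obp44a, though the ranges of Obp56d and Obp44a overlapped. In homozygous heads Obp44a had 538 ± 44.2 RPKM, Obp56e 391 ± 178, Obp99c 263 ± 73.7, Obp83a 213 ± 36.7 and Obp56d 212 ± 93.6. The ranges of each neighbouring pair overlapped, but within every library each pair kept this order, other than Obp83a and Obp56d. Over all 9 libraries the lowest tested mean was 3.66 RPKM.

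**Figure D1:**
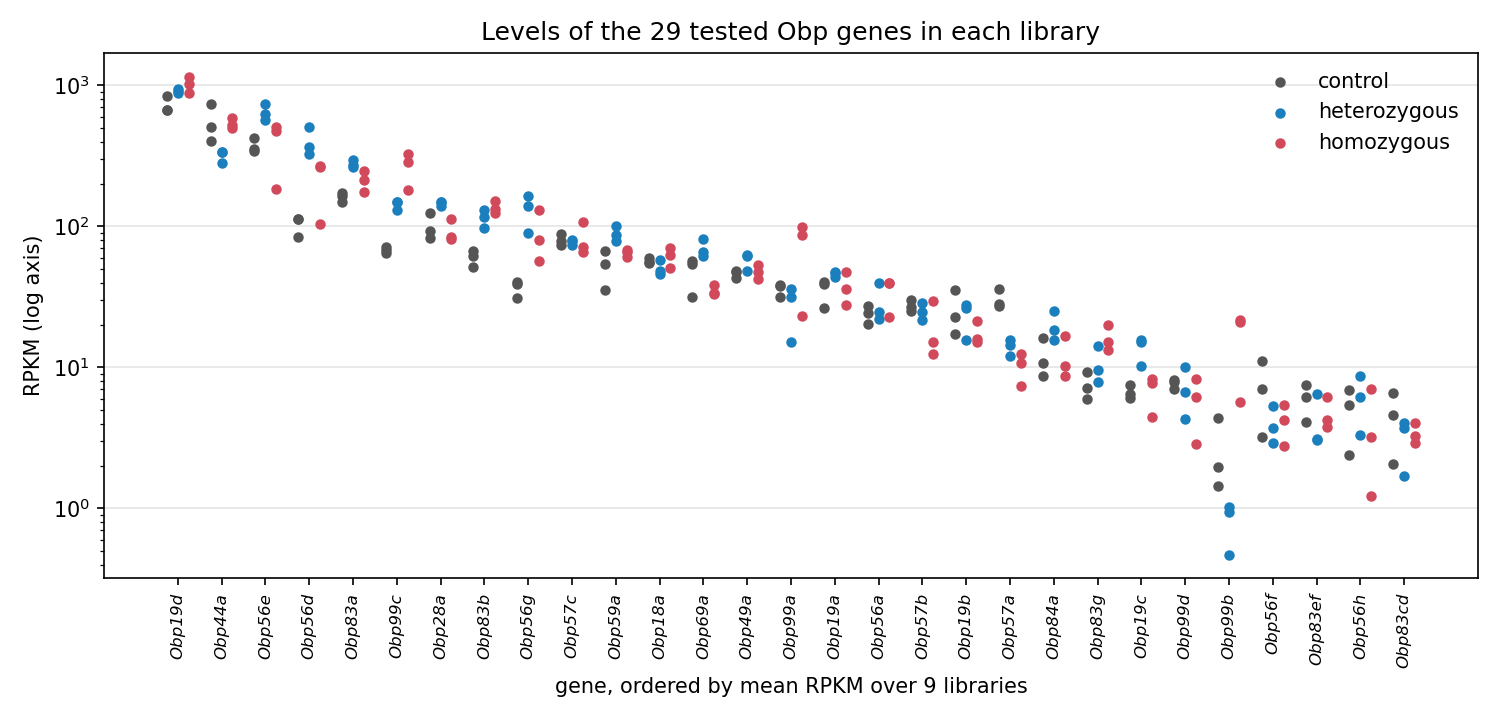
Level of each tested Obp gene in each library, in RPKM (log axis), with 1 point per library and the genes ordered by their mean over all 9 libraries. Obp19d leads with a mean of 889, the lowest gene has 3.66, and the order differs between the groups.

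Heterozygous heads carried more RNA of 5 of the 10 tested Obp genes listed as antennal, where 5.61% of all tested genes were higher. Homozygous heads carried more of 3, where 10.8% were higher, and both carried less of Obp57a, a taste-organ gene. The antennal list (Obp19a, Obp19d, Obp28a, Obp56d, Obp59a, Obp69a, Obp83a, Obp83b, Obp83ef and Obp84a) was chosen with earlier results of these data known, so its counts are a description. Of the 3 homozygous calls, those of Obp83a and Obp19d were lost in 16 and 6 of 18 alternative settings. In heterozygous heads 8 of the 29 tested genes were higher and 2 lower than in control heads, or 34.5% of them, where 9.59% of the 8972 tested genes passed (5.61% higher, 3.98% lower). In homozygous heads 7 were higher and 1 lower, or 27.6%, where 19.9% of tested genes passed (10.8% higher, 9.05% lower). Homozygous heads differed from heterozygous heads in 6 genes, 3 each way, or 20.7%, where 5.77% of tested genes passed (3.35% higher, 2.42% lower). The higher calls of both homozygous comparisons include Obp99b, which was kept for testing through the homozygous libraries alone and is counted as a description. Median log2 fold changes over the 29 genes were 0.33 in heterozygous against control, 0.046 in homozygous against control and -0.30 in homozygous against heterozygous heads, and over all tested genes -0.0097, 0.021 and 0.020. All calls are edgeR quasi-likelihood calls at an adjusted p of 0.05 over all 8972 genes. Both allele groups were set against the same 3 control libraries, so their calls are not independent of each other.

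**Figure D2:**
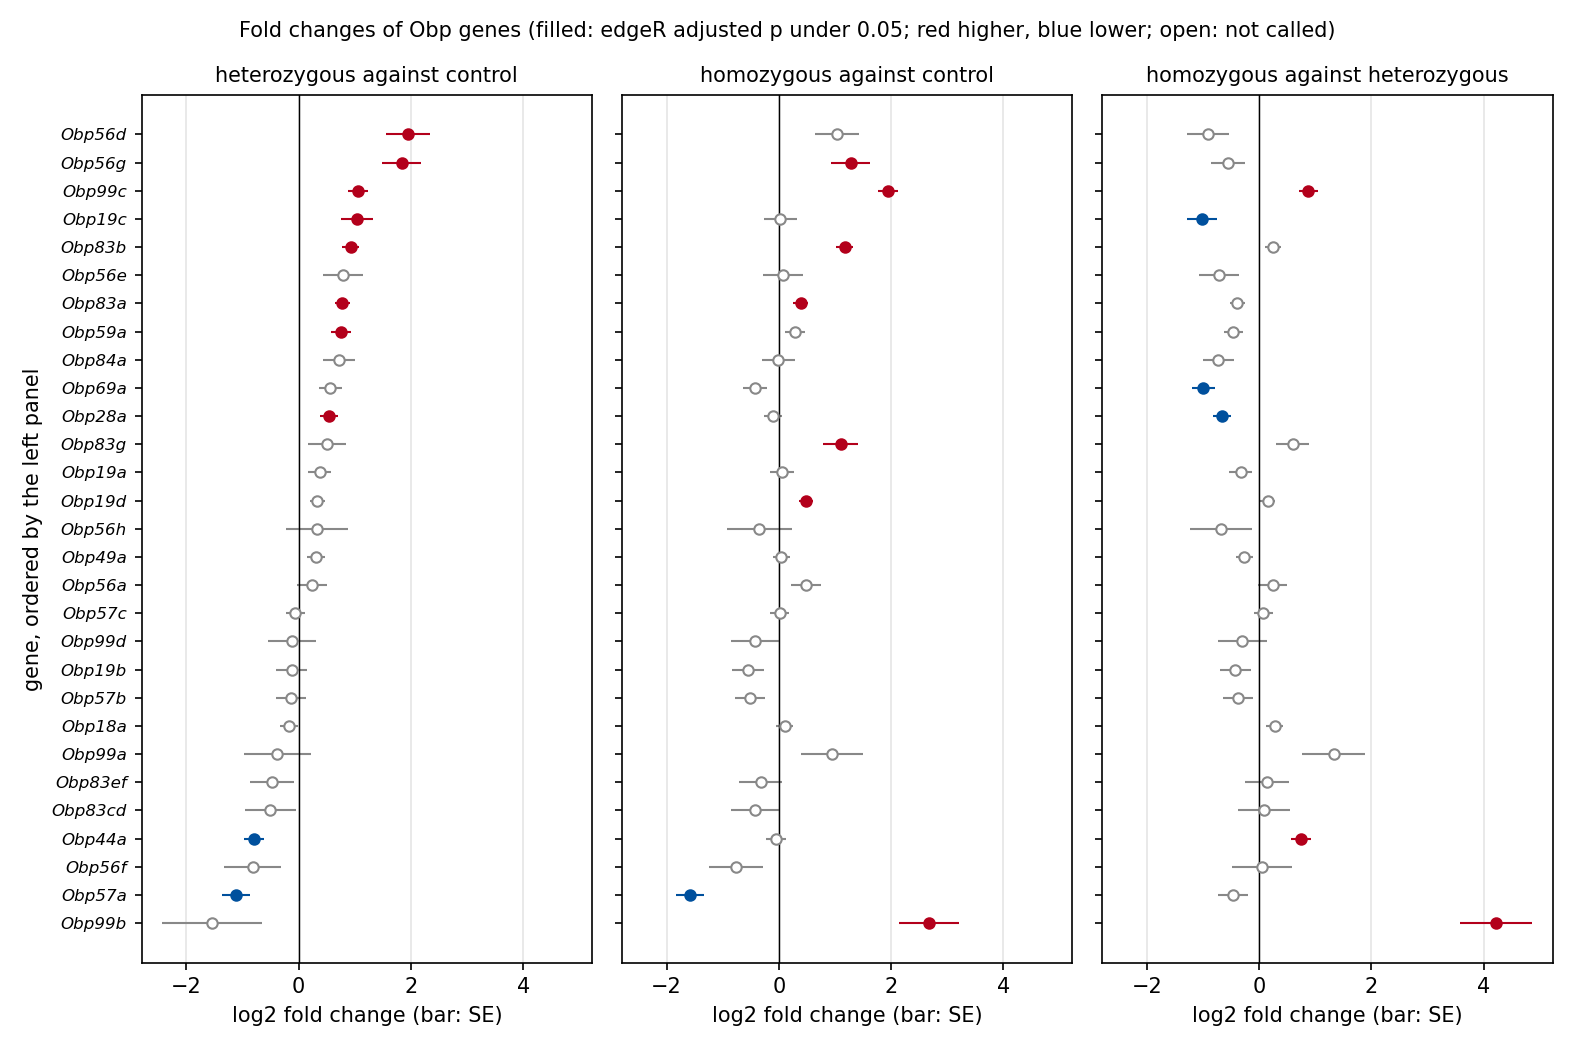
Log2 fold change (points) and standard error (bars) of each tested Obp gene in the 3 comparisons, with filled points for genes past an edgeR adjusted p of 0.05. In heterozygous against control heads 10 are filled, in homozygous against control 8, and in homozygous against heterozygous 6.

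By library, 16 of the 29 genes had 3 heterozygous values on 1 side of all control values, 13 above and 3 below, where 31.7% of tested genes did. In homozygous against control heads 8 did so, 7 above and 1 below, where 33.7% of tested genes did, so the share of Obp genes was no higher than that background. In homozygous against heterozygous heads 10 did so, 3 above and 7 below, where 26% of tested genes did. Obp99b is among those above in both homozygous comparisons. A total of 15 genes passed in none of the comparisons.

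Obp83a and Obp83b are the neighbouring antennal genes first described as OS-F and OS-E, made by support cells of pheromone-sensing trichoid sensilla. Obp83b (FBgn0010403, BDGP6 3R, 5976177 to 5976817, minus strand) had 27.1, 32.6 and 35.5 CPM in control, 68.7, 51.2 and 62.1 CPM in heterozygous and 80.2, 70.1 and 65.7 CPM in homozygous libraries. Every library of both allele groups lay above every control library, while the allele groups overlapped. The log2 fold change was 0.93 ± 0.16 SE in heterozygous (edgeR adjusted p = 7.9e-04) and 1.18 ± 0.15 in homozygous heads (edgeR adjusted p = 3.24e-05). Obp83a (FBgn0011281, 3R, 5972155 to 5975245, minus strand) had 163, 170 and 147 CPM in control, 267, 262 and 294 CPM in heterozygous and 211, 246 and 173 CPM in homozygous libraries. Its heterozygous libraries were the highest, and homozygous replicate 3 came close to the control libraries. It rose by 0.78 ± 0.13 on the log2 scale in heterozygous (edgeR adjusted p = 8.19e-04) and 0.39 ± 0.13 in homozygous heads (edgeR adjusted p = 0.0428). The homozygous call of Obp83a was lost in 16 of 18 alternative settings, among them leaving out any control library or homozygous replicate 1 or 2, and with both of those replicates left out its log2 fold change was 0.092 (edgeR adjusted p = 0.759). That setting leaves 1 homozygous library, which is assumed to vary like those of the other groups, here and wherever both replicates are left out.

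In Obp28a, Obp59a and Obp69a, also listed as antennal, every heterozygous library was above every other library. They differed in which comparisons passed. Obp28a, an abundant antennal member, had 47.9, 53.4 and 71.3 CPM in control, 80.8, 86.2 and 85.9 CPM in heterozygous and 48.6, 65.4 and 47.0 CPM in homozygous libraries. Its heterozygous libraries were above all others. It rose by 0.55 ± 0.16 in heterozygous against control heads (edgeR adjusted p = 0.0365) and was lower by -0.65 ± 0.16 in homozygous against heterozygous heads (edgeR adjusted p = 0.0197). Obp59a, which is needed for humidity sensing, had 36.0, 67.8 and 55.2 CPM in control, 79.7, 87.6 and 103 CPM in heterozygous and 66.6, 68.7 and 61.3 CPM in homozygous libraries. Only its heterozygous group stood clear of the controls (0.75 ± 0.18, edgeR adjusted p = 0.012). Exons of Obp59a share 224 bases with CG30259, so its reads may be shared with that gene. Obp69a, linked to behavioural responses to cis-vaccenyl acetate, had 30.8, 29.8 and 17.3 CPM in control, 33.9, 44.8 and 36.1 CPM in heterozygous and 21.1, 18.4 and 18.0 CPM in homozygous libraries. It passed in homozygous against heterozygous heads, where it was lower (-0.995 ± 0.20, edgeR adjusted p = 0.00618), while the control libraries spanned much of the range between them. Its heterozygous libraries lay above the controls without passing the test (0.56 ± 0.20, edgeR adjusted p = 0.0907).

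These calls were not equally firm. Leaving out 1 library ended the heterozygous call of Obp28a for control replicate 1 or 2 or any heterozygous library (edgeR adjusted p up to 0.16), and its call against heterozygous heads for any heterozygous library or homozygous replicate 1 (up to 0.0893). The Obp59a call was lost without heterozygous replicate 3 (0.55, edgeR adjusted p = 0.0801), and that of Obp69a without heterozygous replicate 2 (edgeR adjusted p = 0.0629).

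Obp19d (FBgn0011280, X, 20419613 to 20420979, plus strand) had 737, 744 and 928 CPM in control, 1039, 982 and 1013 CPM in heterozygous and 1128, 1267 and 972 CPM in homozygous libraries. All libraries of both allele groups lay above the control libraries, with the smallest gap to control replicate 3. The gene rose in homozygous heads (0.48 ± 0.13, edgeR adjusted p = 0.0123). That call was lost without control replicate 1 or 2 or homozygous replicate 2 (edgeR adjusted p up to 0.0778). Over the 10 tested genes listed as antennal, 5 were higher and none lower in heterozygous heads (5.61% of all tested genes were higher), 3 were higher and none lower in homozygous heads (10.8% higher), and 2 were lower in homozygous than in heterozygous heads (2.42% lower). With a correction for exon length, described further on, these became 4 higher and none lower, 2 higher and 1 lower, and 3 lower. Their median log2 fold changes were 0.64, 0.17 and -0.42. Without control replicate 3, the library with ovary transcripts, the counts were 4 higher and none lower, 2 higher and 1 lower, and 2 lower. Without homozygous replicate 3 the counts were 7 higher and none lower, 4 higher and none lower, and 3 lower. Calls over all genes moved too. With all libraries 503 were higher, 970 higher and 217 lower of 8972 in these comparisons. Without control replicate 3 these were 351, 762 and 187 of 9169. They were 849, 1352 and 508 of 9147 without homozygous replicate 3.

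**Figure D3:**
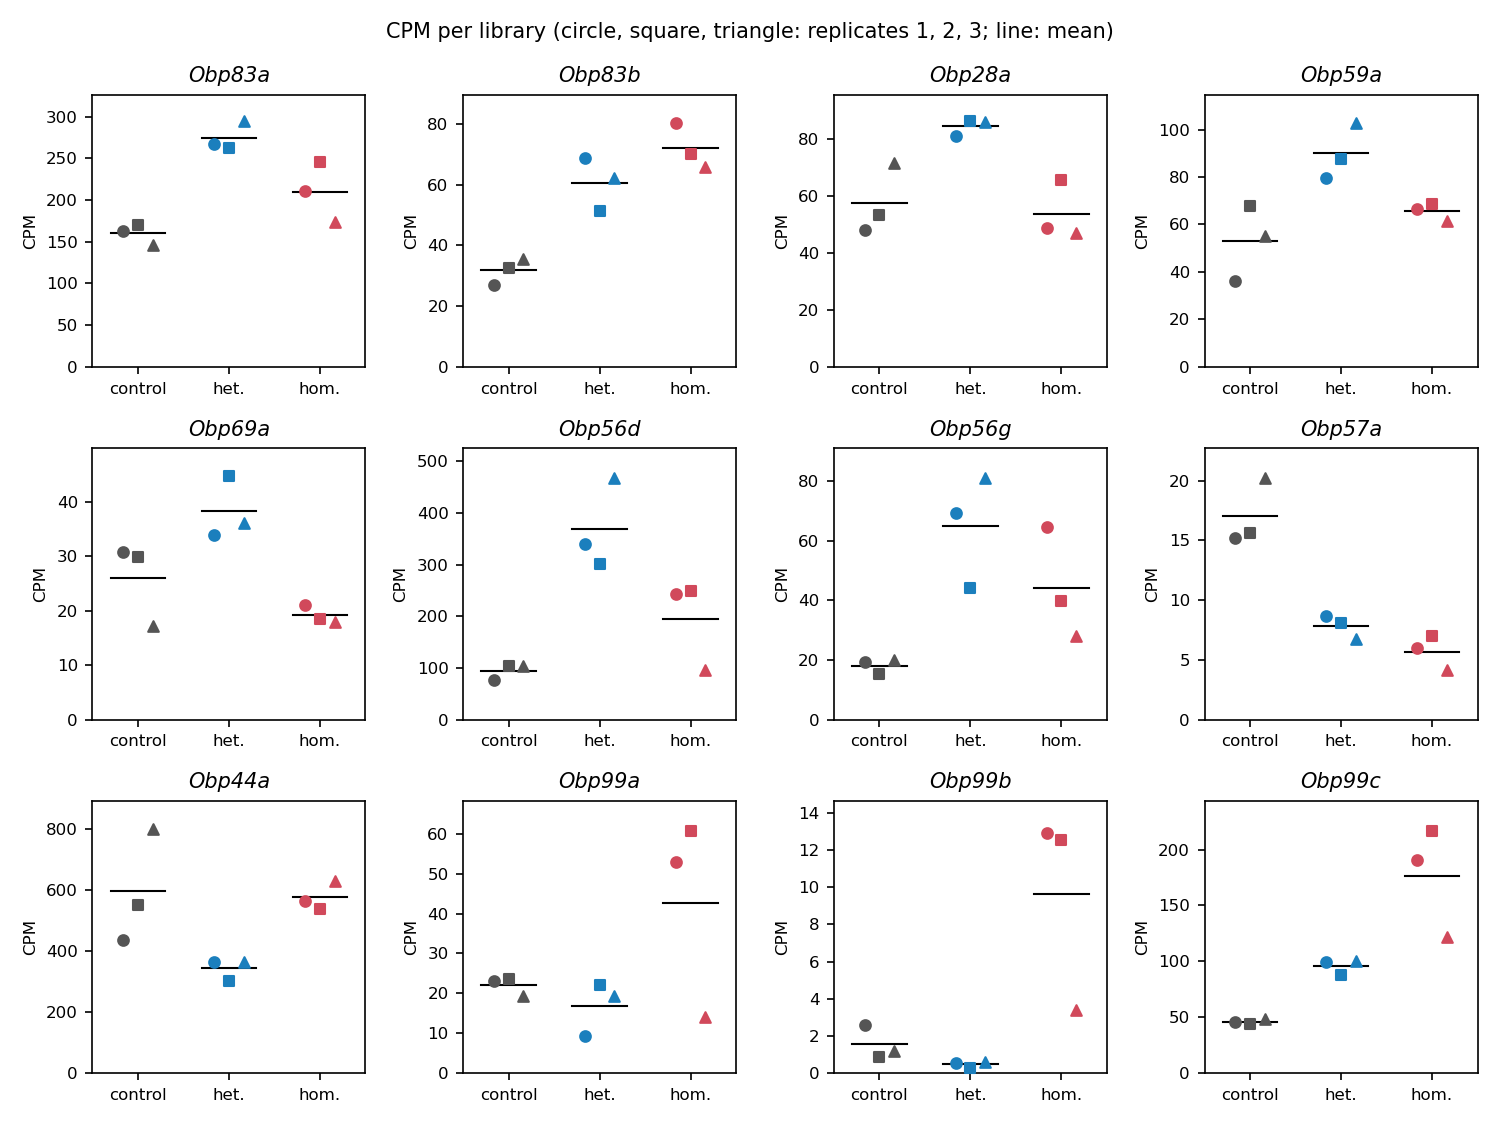
CPM of 12 Obp genes in each library, with 1 point per library and the mean of each group as a line, on linear axes that start at 0. Obp83b and Obp99c are higher in both allele groups than in control heads, Obp57a is lower in both, and Obp99a and Obp99b are high in homozygous replicates 1 and 2.

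In the Obp56 cluster on 2R, whose genes are expressed in antennae, mouthparts and other tissues, 6 genes were tested. Obp56d and Obp56g rose in heterozygous heads (5.61% of all tested genes were higher), Obp56g alone rose in homozygous heads (10.8% higher), and no gene fell. Homozygous replicate 3 stood apart. Obp56d (FBgn0034470, 2R, 19702924 to 19703915, minus strand) had 77.3, 105 and 104 CPM in control, 340, 300 and 467 CPM in heterozygous and 243, 248 and 96.3 CPM in homozygous libraries. The heterozygous libraries were all above the controls, while homozygous replicate 3 lay within the control range. The heterozygous difference was 1.95 ± 0.39 on the log2 scale (edgeR adjusted p = 0.0254) and the homozygous one 1.04 ± 0.39 (edgeR adjusted p = 0.113). Without homozygous replicate 3, Obp56d passed in homozygous against control heads (1.36, edgeR adjusted p = 7.28e-06). Leaving out any 1 control library ended the heterozygous call, as did leaving out heterozygous replicate 1 or 3 (edgeR adjusted p up to 0.0918).

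Obp56g (FBgn0034474, 2R, 19783484 to 19784043, minus strand), known from taste bristles and as a seminal fluid protein, was also highest on average in heterozygous heads. Its libraries had 19.3, 15.3 and 19.9 CPM in control, 69.3, 44.2 and 81.0 CPM in heterozygous and 64.4, 39.7 and 28.0 CPM in homozygous heads. No library of either allele group reached down to the controls. It rose by 1.83 ± 0.34 in heterozygous (edgeR adjusted p = 0.0112) and by 1.28 ± 0.35 in homozygous heads (edgeR adjusted p = 0.0319). The first call was lost without control replicate 1 or 2 (edgeR adjusted p up to 0.0583) and the second without any 1 control library or homozygous replicate 2 (up to 0.113). Obp56e, the most abundant of the cluster, had 188, 183 and 224 CPM in control, 332, 301 and 394 CPM in heterozygous and 272, 253 and 98.8 CPM in homozygous libraries. Its heterozygous libraries lay above the controls without passing the test (0.79 ± 0.36, edgeR adjusted p = 0.249), and homozygous replicate 3 was the lowest of all libraries. Obp56e shares 449 exon bases with the antisense gene asRNA:CR44509, so reads of the pair may be mixed. The cluster summed to 304, 324 and 374 CPM in control, 759, 668 and 971 CPM in heterozygous and 607, 570 and 238 CPM in homozygous libraries. Most of the cluster sum was Obp56d and Obp56e. Summed fat body markers, mostly Yp1, Yp2 and Yp3, were lowest in the same homozygous replicate 3, and their part in these values was not tested. Obp56f (3.76, 2.10 and 2.19 CPM in control, heterozygous and homozygous heads) and Obp56h (2.91, 3.60 and 2.28 CPM) did not pass in any comparison.

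Obp57a, one of a cluster of taste-organ genes on 2R (FBgn0043535, 20505150 to 20505758, plus strand), was the 1 member that passed as lower in both allele groups. It had 15.2, 15.6 and 20.2 CPM in control, 8.70, 8.12 and 6.73 CPM in heterozygous and 5.99, 6.99 and 4.14 CPM in homozygous libraries. The control libraries were all above the others, and heterozygous and homozygous values overlapped. It fell by 1.11 on the log2 scale (SE 0.24) in heterozygous heads (edgeR adjusted p = 0.00621) and by 1.58 (SE 0.25) in homozygous heads (edgeR adjusted p = 2.16e-04). Both calls held in all 18 alternative settings.

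The neighbours of Obp57a did not pass. Obp57c had means of 44.9 ± 4.06, 43.3 ± 1.65 and 45.6 ± 12.5 CPM in control, heterozygous and homozygous heads (SD, n = 3). Obp57b had 20.8, 25.0 and 22.0 CPM in control, 20.5, 17.9 and 23.5 CPM in heterozygous and 10.3, 12.6 and 24.6 CPM in homozygous libraries. Its homozygous replicates 1 and 2 were low and replicate 3 was not, and without replicate 3 it passed (-0.99, edgeR adjusted p = 0.00121). Obp49a, a taste-bristle protein through which bitter compounds suppress the sweet response, had 36.1 ± 1.98, 44.9 ± 6.38 and 37.3 ± 4.19 CPM and did not pass. Among the 6 tested genes listed for taste organs, Obp56g was higher and Obp57a lower in each allele group. Of all tested genes 5.61% were higher and 3.98% lower in heterozygous heads, and 10.8% and 9.05% in homozygous heads.

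Of the 4 Obp99 genes on 3R, all tested, Obp99c rose in homozygous heads against both other groups and in heterozygous against control heads. Obp99b was also higher in homozygous heads, but it was kept for testing through those libraries alone. Obp99a and Obp99d did not pass. Among all tested genes 10.8% were higher in homozygous and 5.61% in heterozygous against control heads, and 3.35% in homozygous against heterozygous heads. The 4 genes lie 5.639 to 5.684 Mb from Mettl3 on the same arm. Obp99c (FBgn0039682, 29685736 to 29689311, minus strand) had 45.7, 43.7 and 48.1 CPM in control, 99.3, 87.4 and 101 CPM in heterozygous and 190, 217 and 121 CPM in homozygous libraries. The 3 groups did not overlap, with the heterozygous libraries in between. The log2 fold change was 1.06 ± 0.18 in heterozygous against control (edgeR adjusted p = 0.00102), 1.94 ± 0.18 in homozygous against control (edgeR adjusted p = 1.1e-06) and 0.88 ± 0.17 in homozygous against heterozygous heads (edgeR adjusted p = 0.00473). With homozygous replicates 1 and 2 left out, the difference from heterozygous heads was 0.31 (edgeR adjusted p = 0.26), while both calls against control heads held in all 18 settings. Obp99c shares 23 exon bases with Gycalpha99B.

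Obp99b (FBgn0039685, 3R, 29716254 to 29716896, minus strand), reported to be more abundant in male than in female head fat body, was scarce outside homozygous heads. Its reads numbered 7, 3 and 4 (control), 2, 1 and 2 (heterozygous) and 54, 45 and 14 (homozygous), or 1.54 ± 0.931, 0.484 ± 0.179 and 9.64 ± 5.40 CPM (SD, n = 3). All homozygous libraries were above all others, replicate 3 by the least. Since the gene was kept for testing through these libraries alone, a difference was built into its being tested, and its calls are given as a description. The log2 fold change was 2.68 ± 0.53 against control (edgeR adjusted p = 0.00196) and 4.22 ± 0.64 against heterozygous heads (edgeR adjusted p = 8.58e-04). With homozygous replicates 1 and 2 left out, the libraries with gut transcripts, these were 1.16 (edgeR adjusted p = 0.434) and 2.70 (edgeR adjusted p = 0.0764).

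Obp99a followed the same libraries without passing the test. It had 23.0, 23.6 and 19.4 CPM in control, 9.26, 22.1 and 19.3 CPM in heterozygous and 52.9, 60.6 and 14.1 CPM in homozygous libraries. Homozygous replicates 1 and 2 were the highest and replicate 3 lay below the controls (0.95 ± 0.55 against control, edgeR adjusted p = 0.29). Without replicate 3 the difference was 1.37 (edgeR adjusted p = 4.35e-05). Obp99d, at 3.86, 3.52 and 2.88 CPM on average in the 3 groups, did not pass in any comparison. Summed over the cluster, homozygous replicates 1 and 2 had 258 and 293 CPM, replicate 3 had 143, heterozygous libraries 113 to 123 and control libraries 72.1 to 75.4. Gut markers were high in replicates 1 and 2, and their part in these values was not tested.

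Obp44a (FBgn0033268, 2R, 8134170 to 8135315, minus strand) was the abundant member that was lower in heterozygous heads. It had 437, 551 and 802 CPM in control, 365, 301 and 365 CPM in heterozygous and 564, 540 and 632 CPM in homozygous libraries. The heterozygous libraries were below all others, and the homozygous ones lay within the wide control range. It fell by 0.80 on the log2 scale (SE 0.18) in heterozygous against control heads (edgeR adjusted p = 0.012). Leaving out heterozygous replicate 2 ended that call (edgeR adjusted p = 0.0665). It was higher in homozygous than in heterozygous heads (0.75 ± 0.18, edgeR adjusted p = 0.0246), a call that leaving out any 1 library of either group ended (edgeR adjusted p up to 0.127). Summed glial markers were 4135 to 4562 CPM in control, 4562 to 5265 CPM in heterozygous and 4868 to 6223 CPM in homozygous libraries. Of the 5 glial markers 1 passed as higher and none as lower in heterozygous against control heads (5.61% and 3.98% of all tested genes). The median log2 fold change of these markers was -0.059 in that comparison. In both homozygous comparisons 1 glial marker, alrm, passed as lower and none as higher. It fell against control (-0.61 ± 0.14, edgeR adjusted p = 0.00541) and against heterozygous heads (-0.56 ± 0.14, edgeR adjusted p = 0.0283). Of all tested genes 9.05% and 2.42% were lower there. The part of the glial markers in the Obp44a values was not tested. Obp44a shares 205 exon bases with Pabp2.

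A pair of less abundant genes also passed. Obp19c, next to Obp19d on X, had 6.32, 5.96 and 7.33 CPM in control, 15.4, 14.8 and 10.1 CPM in heterozygous and 8.14, 7.55 and 4.38 CPM in homozygous libraries. It was higher in heterozygous than in control heads (1.04 ± 0.28, edgeR adjusted p = 0.0219) and lower in homozygous than in heterozygous heads (-1.01 ± 0.27, edgeR adjusted p = 0.0322). The first call was lost without control replicate 1 or 2 or heterozygous replicate 1 or 2 (edgeR adjusted p up to 0.104), the second without heterozygous replicate 1 or 2 or homozygous replicate 3 (up to 0.14). Obp83g, at the far end of the Obp83 cluster, had 4.09, 3.41 and 5.28 CPM in control, 4.49, 8.12 and 5.50 CPM in heterozygous and 8.62, 11.5 and 7.54 CPM in homozygous libraries. Its homozygous libraries lay above the controls (1.10 ± 0.32, edgeR adjusted p = 0.0193). Leaving out control replicate 1 or 2 or homozygous replicate 2 ended this call (edgeR adjusted p up to 0.0924). Obp83cd and Obp83ef, each built from a pair of Obp domains, had means of 2.84 to 5.34 CPM per group and did not pass, and they share 92 exon bases with each other.

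The remaining tested members did not pass in any comparison. Obp19a and Obp84a, both antennal, had 22.7 ± 4.88, 29.7 ± 1.24 and 23.8 ± 6.53 CPM, and 9.69 ± 3.17, 16.2 ± 3.90 and 9.70 ± 3.49 CPM, in control, heterozygous and homozygous heads (SD, n = 3). Their heterozygous means were the higher ones. Obp84a shares 663 exon bases with Dtwd2. Obp18a had 41.9 ± 2.05, 37.1 ± 4.71 and 44.9 ± 7.54 CPM, and Obp19b 16.3 ± 6.01, 15.1 ± 4.35 and 11.2 ± 2.13 CPM. Obp56a had 11.1, 13.3 and 14.96 CPM in control, 12.1, 13.4 and 21.7 CPM in heterozygous and 21.6, 21.8 and 12.4 CPM in homozygous libraries, with homozygous replicates 1 and 2 above the controls and replicate 3 among them. Without replicate 3 Obp56a passed in homozygous against control heads (0.71, edgeR adjusted p = 0.0272).

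Summed over the 51 genes, Obp transcripts made up 2071, 2277 and 2759 CPM in control, 3056, 2820 and 3310 CPM in heterozygous and 3201, 3363 and 2563 CPM in homozygous libraries. Obp19d and Obp44a together took 56.7 to 62.7% of the Obp reads in control, 41.6 to 45.9% in heterozygous and 52.9 to 62.6% in homozygous libraries. Without this pair the sum was 897, 983 and 1030 CPM in control, 1652, 1537 and 1933 CPM in heterozygous and 1509, 1556 and 960 CPM in homozygous libraries. All heterozygous libraries were above all controls in either sum, while homozygous replicate 3 fell within the control range in both.

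Other genes of the antennal fluid came from a list of 12 tested genes, which holds lush and none of the 51. In heterozygous heads 4 were higher and none lower (5.61% and 3.98% of all tested genes), namely a5 (0.95 ± 0.14, edgeR adjusted p = 3.18e-04), Os-C (0.94 ± 0.14, edgeR adjusted p = 3.26e-04), Jhedup (0.95 ± 0.15, edgeR adjusted p = 5.33e-04) and a10 (0.64 ± 0.12, edgeR adjusted p = 0.00263). These encode secreted antennal proteins, and Jhedup is an esterase that degrades food odours. In homozygous heads a5, Os-C and Phk-3 were higher and Jhedup lower (10.8% and 9.05% of all tested genes). Jhedup had 117, 136 and 126 CPM in control, 258, 235 and 238 CPM in heterozygous and 63.2, 76.9 and 105 CPM in homozygous libraries, so the 3 groups did not overlap. It fell by 0.63 on the log2 scale (SE 0.15) in homozygous against control heads (edgeR adjusted p = 0.00715). In homozygous against heterozygous heads Jhedup, a10 and Snmp1, a membrane protein of pheromone-sensing neurons, were lower (2.42% of all tested genes). The pheromone-binding lush did not pass in any comparison, with 28.2 ± 3.92, 28.9 ± 3.06 and 26.7 ± 7.69 CPM.

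Few receptor genes had enough reads. Orco, the co-receptor of odorant receptors, had 34.2 ± 4.52, 45.1 ± 3.62 and 31.6 ± 5.19 CPM and did not pass. Of 59 odorant receptor genes 7 were tested, with none passing in heterozygous heads. In homozygous heads 1 was higher and 1 lower (10.8% and 9.05% of all tested genes), and 1 was lower than in heterozygous heads (2.42%). The higher one, Or47a, had 7, 3 and 3 reads (control), 8, 8 and 5 (heterozygous) and 19, 18 and 18 (homozygous). It had over 10 reads in the homozygous libraries alone, through which it was kept for testing, so its call is a description. The lower one in both comparisons, Or22b, had 6, 13 and 11 reads (control), 24, 12 and 13 (heterozygous) and 7, 2 and 3 (homozygous). Only its heterozygous libraries all had at least 10 reads, so its calls are a description too. Of 66 ionotropic receptor genes 8 were tested, with 1 lower in heterozygous heads (3.98% of all tested genes), 3 lower in homozygous heads (9.05%) and 1 lower in homozygous than in heterozygous heads (2.42%). The gene lower between the allele groups was Ir25a (-1.18 ± 0.32, edgeR adjusted p = 0.0387). Of 60 gustatory receptor genes none was tested. Ir75a, an antennal acid receptor, was lower in homozygous heads (-1.35 ± 0.36, edgeR adjusted p = 0.0114). Ir68a, a receptor of humidity-sensing neurons, had 19, 22 and 23 reads (control), 15, 7 and 10 (heterozygous) and 8, 8 and 11 (homozygous). Only its control libraries all had at least 10 reads, so it was kept for testing largely through them. Its call as lower in homozygous heads (-1.54 ± 0.37, edgeR adjusted p = 0.00611), which the counts above include, is a description. Ir76a, an antennal ionotropic receptor, had 60, 59 and 42 reads (control), 4, 10 and 4 (heterozygous) and 3, 4 and 1 (homozygous). It had over 10 reads in the control libraries alone, through which it was kept for testing. A difference was thus built into its being tested, and its calls, which the lower counts above include, are given as a description. Its log2 fold change was -3.27 ± 0.39 in heterozygous (edgeR adjusted p = 2.58e-05) and -4.58 ± 0.44 in homozygous heads (edgeR adjusted p = 9.8e-07).

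**Figure D4:**
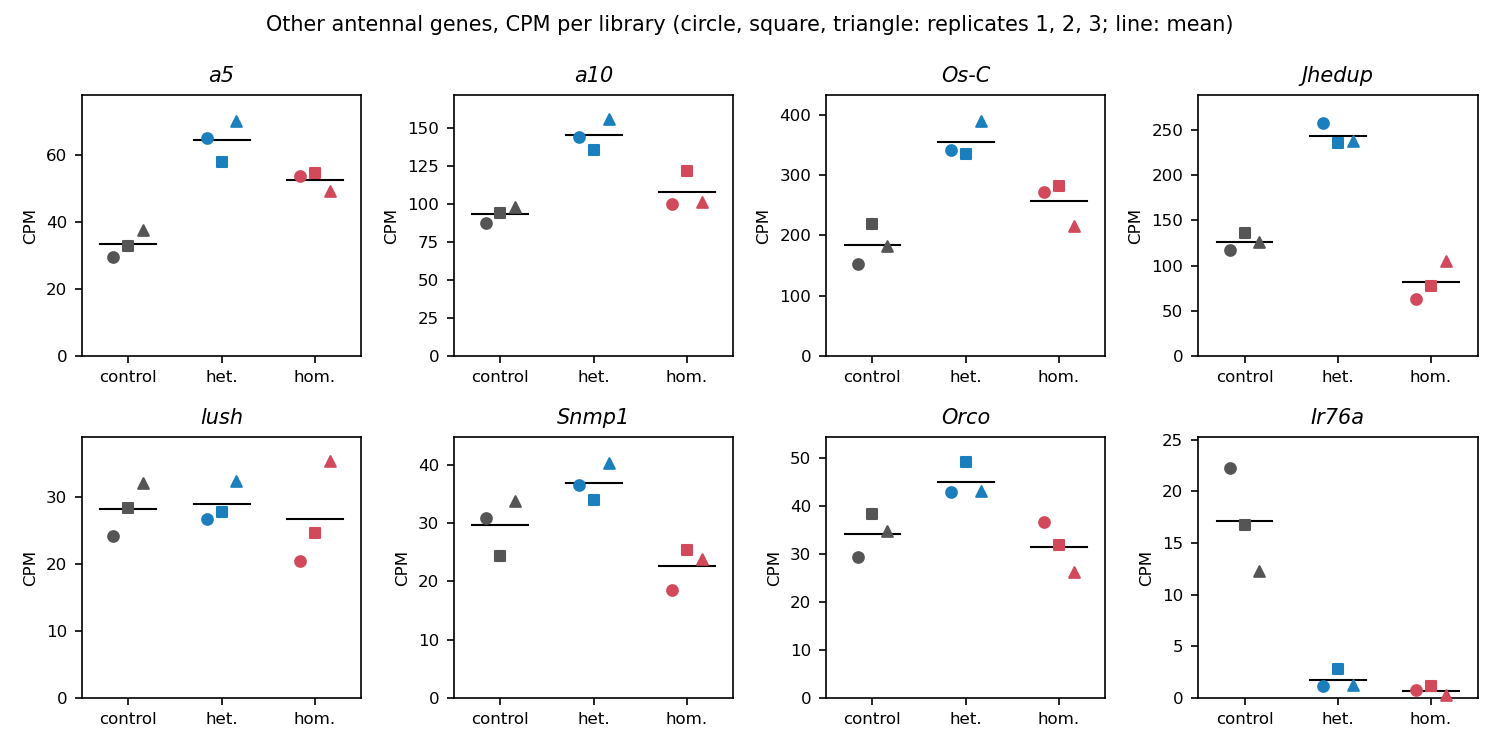
CPM of 8 other chemosensory genes in each library, with 1 point per library and the mean of each group as a line, on linear axes that start at 0. For a5, a10 and Os-C the heterozygous libraries are the highest, Jhedup is highest in heterozygous and lowest in homozygous libraries, lush and Orco did not pass, and Ir76a is high in the controls alone.

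Obp genes are short, and short genes shifted in these libraries. The tested members had a median exon length of 643 bases against 2216 for all tested genes with a length, and all 29 were under the lower quartile of 1356 bases. In homozygous against control heads the 2195 shortest genes (198 to 1356 bases) had a median log2 fold change of 0.27, with 18.3% of them higher and 4.33% lower, and the 2198 longest -0.14, with 6.23% higher and 16.9% lower. In heterozygous heads the medians were 0.12 and -0.10. Of the shortest genes 9.20% were higher and 2.87% lower there, and of the longest 3.14% and 5.19%. With a correction for exon length the homozygous Obp calls were 4 higher and 3 lower (10.7% and 7.63% of all tested genes), the heterozygous 7 and 2 (6.31% and 3.96%) and those between the allele groups 2 and 4 (3.89% and 2.65%). In either direction, 18.3%, 10.3% and 6.54% of all tested genes passed. The median log2 fold change of Obp genes was then 0.19 in heterozygous against control, -0.20 in homozygous against control and -0.42 in homozygous against heterozygous heads.

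The correction moved single calls. In homozygous against control heads Obp83a (0.20, edgeR adjusted p = 0.216), Obp56g (0.94, edgeR adjusted p = 0.0543) and Obp83g (0.80, edgeR adjusted p = 0.0745) no longer passed. Obp69a (-0.73, edgeR adjusted p = 0.0232) and Obp19b, a taste-organ member (-0.82, edgeR adjusted p = 0.0447), then passed as lower. Obp28a no longer passed in heterozygous against control heads (0.38, edgeR adjusted p = 0.103), nor Obp44a between the allele groups (0.69, edgeR adjusted p = 0.0641), where Obp83a became lower (-0.48, edgeR adjusted p = 0.0109). Obp83b, Obp99c and Obp57a kept their calls in both allele groups against control, and Obp83a kept that in heterozygous heads, with this correction and in all other settings tried.

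**Figure D5:**
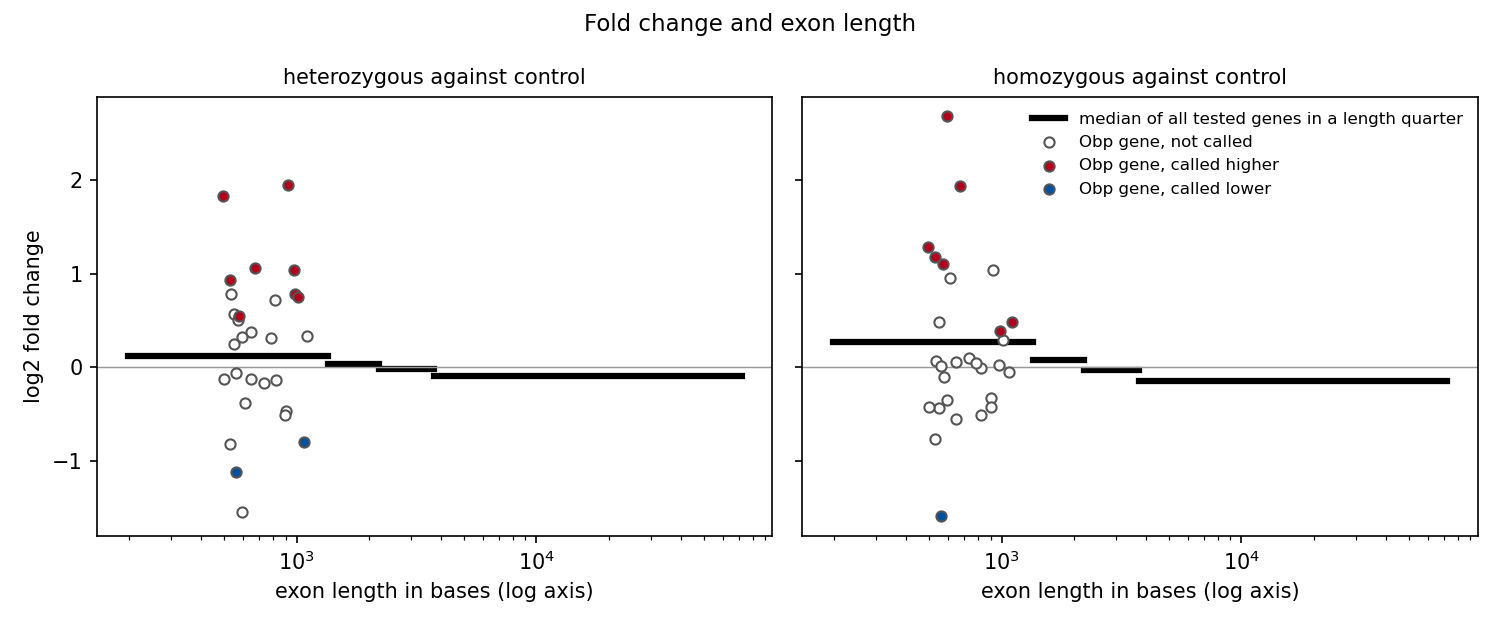
Log2 fold change against exon length (log axis, bases) for the tested Obp genes (points), with black bars for the median of all tested genes in each of 4 bins of exon length. In homozygous against control heads the bar of the shortest genes is at 0.27 and that of the longest at -0.14.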

How the data were processed

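The authors deposited whole-number read counts per gene, in 1 table per library that listed 17558 genes and, on 5 further lines, the reads left out of genes. Per the submitters' processing notes, CASAVA 1.8.4, STAR 2.4.0h, HTSeq 0.6.1 and DESeq2 1.6.3 were used with BDGP6. Whether counting used strand is not given in the sources used here, though the kit was directional per the labels' protocols. Those 5 lines included reads without a feature (17.2 to 31.7% per library) and without a unique position (8.96 to 16.0%).

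Groups came from the titles. Counts of all 9 libraries were fitted together in edgeR 4.0.16 (R 4.3.3) with TMM scaling (factors 0.9583 to 1.075), filterByExpr (minimum count 10, minimum total 15) and the robust quasi-likelihood test, with Benjamini-Hochberg adjustment over the 8972 genes kept and a threshold of 0.05. The standard error is the log2 fold change divided by the square root of F. CPM are TMM-scaled, and RPKM divide them by exon length from an Ensembl annotation of BDGP6 that held 17252 of the 17558 IDs. No pair of libraries was identical. Alternatives were DESeq2 1.42.0, its size factors, no filter, fits of only the compared groups, an exon length correction, a replicate block, libraries left out, and a spread estimate without robust weights, which was added after seeing the data. Members and lists were chosen with earlier results of these data known. Any member could be named, with values for those tested. From other lists, up to 6 genes that passed per comparison could be named, lowest p first, besides lush, Orco, Snmp1 and Mettl3. Not all of these are named in the text. Depth limits low genes: 3 reads are 0.702 to 1.10 CPM in a library.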

Additional observations from a re-analysis of the deposited data

How the results depend on the processing

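The 24 Obp calls were recomputed in 18 settings each, and of 432 repeats 350 passed, 82 did not and 0 changed sign. A set of 7 calls passed in every setting. Without 1 library, Obp calls ranged from 4 to 13 in homozygous against control, 6 to 13 in heterozygous against control and 2 to 8 between the allele groups, and calls over all genes from 1182 to 2542, 447 to 1511 and 214 to 1159. The high ends of the Obp ranges in both comparisons with control came without homozygous replicate 3. Without homozygous replicates 1 and 2, which leaves 1 library in that group, homozygous against control heads had 4 Obp calls, 2 higher and 2 lower, and 1394 over all genes, heterozygous against control heads 12 and 1442, and the allele groups 8, all lower, and 927. With only the compared groups, heterozygous heads had 1439 calls. The cause was not tested. DESeq2 called 6, 9 and 5 Obp genes and 1539, 781 and 578 of all genes.

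Signs turned for members that did not pass with all libraries. With homozygous replicates 1 and 2 left out, log2 fold changes against control became -0.12 for Obp56a, -0.014 for Obp56d, -1.03 for Obp56e, -0.66 for Obp99a and 0.093 for Obp57b, and against heterozygous heads -0.29 for Obp99a and 0.22 for Obp57b. Obp56e, at 0.07 against control, became -0.29 with the length correction, -0.31 with the block and length correction, -0.20 without homozygous replicate 1 and -0.11 without replicate 2, against 0.40 without replicate 3. It thus passed as higher without replicate 3 (edgeR adjusted p = 0.0163) and as lower without replicates 1 and 2 (9.48e-05).

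Deviations from the group mean correlated at -0.0659 to 0.117 between same-numbered libraries and at -0.114 to 0.114 between differently numbered ones. No pairing by replicate number was seen, though with 3 libraries per group these values cannot exclude a shared batch. With the number as a block, Obp calls were 7, 9 and 6 and calls over all genes 1712, 816 and 504, with Obp83a lost in homozygous (edgeR adjusted p = 0.0566) and Obp56d in heterozygous heads (0.0825). Members with at most 45 reads in all were not compared at this depth.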
